A study of Mus musculus with 3 samples.

Results

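Ribosomal protein gene promoters were examined in 3 ATAC-seq peak lists of mouse embryonic stem cells. The members were the protein-coding genes of the RefSeq mouse gene table (GRCm38.p6) whose symbol begins with Rpl or Rps and a digit, together with Rplp0, Rplp1, Rplp2 and Rpsa and without the Rps6k kinases. The rule found 89 of 21900 protein-coding genes. Of these, 77 were the core cytosolic genes, 46 for the large and 31 for the small subunit. The other 12 were Rpl22l1, Rpl37rt, Rps23rg1, Rps27l, Rps27rt, Rpl32l, Rpl10l, Rpl36al, Rpl39l, Rpl3l, Rpl7l1 and Rps19bp1. Rps19bp1 met the symbol rule but encodes a protein that binds RPS19 and is not itself a ribosomal protein. Rpl34-ps1 and Rpl31-ps12 were left out as pseudogene symbols, although the table lists both as protein-coding.

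ATAC-seq marks open chromatin by the insertion of sequencing adapters with the Tn5 transposase. The study set cells with induced Halo-tagged Sox2, a pluripotency transcription factor, beside cells with a Halo-tagged form named Sox2a and beside cells with no inducible transgene. All 3 lines derive from the embryonic stem cell line CGR8 and grew in medium with LIF, CHIR99021 and PD184352. Line SES4.1 (Halo-Sox2) received 300 ng/mL doxycycline for 20 h, and line SES5.1 (Halo-Sox2a) received 70 ng/mL for 20 h. Both were stained with 50 nM of a dye that binds the Halo tag and were sorted through 1 shared intensity gate. Line SES11 (Control) lacks an inducible transgene, and the labels do not say whether its cells received doxycycline or dye or were sorted. Each group was 1 library from 1 line, made from about 50000 cells with Tn5 produced by the laboratory. Transgene, line and doxycycline dose cannot be told apart from the library, and no p-value was computed.

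Each ribosome joins a small subunit, which reads the messenger RNA, to a large subunit, which forms the peptide bond. Nearly every ribosomal protein is present once per ribosome, so growing cells transcribe these genes strongly and in step. Their promoters are known for sites of GA-binding protein and other ETS factors and for a transcription start inside a run of pyrimidines, the 5' terminal oligopyrimidine motif, through which nutrient signalling controls translation of the messenger RNA.

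The promoters shown first are the core promoters with the 3 highest and the 3 lowest mean positions over the lists, because the members spread widely in rank although all 6 were called in every list. Each run covers 100 bases before and 20 bases from the first annotated start, 5' to 3', from the RefSeq promoter table (GRCm38.p6). Capitals mark CCGGAAG, a core word of ETS factors, on either strand, and a pyrimidine tract that begins within 5 bases of the start. They are Rps13 (chr7:116334171-116334290, minus strand), Rpl15 (chr14:18270967-18271086, minus strand), Rpl37 (chr15:5116513-5116632, plus strand), Rpl10a (chr17:28328371-28328490, plus strand), Rpl19 (chr11:98026610-98026729, plus strand) and Rpl18 (chr7:45717971-45718090, plus strand).
Rps13: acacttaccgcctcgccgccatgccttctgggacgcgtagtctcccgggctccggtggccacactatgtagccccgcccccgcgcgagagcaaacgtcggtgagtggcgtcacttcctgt
Rpl15: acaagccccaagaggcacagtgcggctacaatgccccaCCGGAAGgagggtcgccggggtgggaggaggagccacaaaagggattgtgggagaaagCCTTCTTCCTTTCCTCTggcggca
Rpl37: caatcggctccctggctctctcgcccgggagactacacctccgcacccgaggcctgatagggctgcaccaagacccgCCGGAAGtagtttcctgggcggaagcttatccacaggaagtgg
Rpl10a: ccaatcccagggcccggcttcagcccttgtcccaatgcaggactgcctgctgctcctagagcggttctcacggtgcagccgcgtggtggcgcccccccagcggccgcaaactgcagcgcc
Rpl19: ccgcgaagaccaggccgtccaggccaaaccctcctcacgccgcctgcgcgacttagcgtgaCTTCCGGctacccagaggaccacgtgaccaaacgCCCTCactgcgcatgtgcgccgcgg
Rpl18: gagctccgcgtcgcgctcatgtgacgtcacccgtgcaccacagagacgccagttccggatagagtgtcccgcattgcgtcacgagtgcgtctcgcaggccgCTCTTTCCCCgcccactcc

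RPS13 and RPL15 are proteins of the small and large subunit, and their promoters stood near the top of all 3 lists. The Rps13 run holds no capitals, while Rpl19, near the bottom, holds both features, although its 5-base tract ends before the annotated start. Both features were seen at both ends of the order.

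The second set pairs 2 core genes with copies elsewhere in the genome. Rps27 (chr3:90213629-90213748, minus strand) is shown with Rps27rt (chr9:114982720-114982839, minus strand), and Rpl39 (chrX:37085203-37085322, minus strand) with Rpl39l (chr16:10170128-10170247, plus strand). Capitals mark the longest run that Rps27 and Rps27rt share over their 300-base promoter intervals, which is 38 bases long and begins at base 2 of Rps27 and base 1 of the copy, counted from the first base of the transcript. Only its first part lies inside the runs shown.
Rps27: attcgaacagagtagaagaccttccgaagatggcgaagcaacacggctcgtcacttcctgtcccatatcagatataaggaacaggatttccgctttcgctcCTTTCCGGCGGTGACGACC
Rps27rt: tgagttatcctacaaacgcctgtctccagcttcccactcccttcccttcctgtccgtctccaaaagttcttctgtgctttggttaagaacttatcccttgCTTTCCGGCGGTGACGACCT
Rpl39: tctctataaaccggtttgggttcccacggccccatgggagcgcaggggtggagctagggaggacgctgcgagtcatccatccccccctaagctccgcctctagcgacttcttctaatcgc
Rpl39l: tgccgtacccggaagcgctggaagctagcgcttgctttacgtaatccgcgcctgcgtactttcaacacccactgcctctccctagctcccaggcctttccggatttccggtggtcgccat

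Before the start, the longest run common to Rps27 and Rps27rt had 10 bases. Rpl39 and Rpl39l shared no run longer than 8 bases in 300, so nothing is in capitals there. The parent promoters were in all 3 lists. The Rps27rt promoter was in none, and the Rpl39l promoter was in the Halo-Sox2a list alone.

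Peak numbers were 88898 in Halo-Sox2, 83995 in Halo-Sox2a and 72638 in Control, each with a whole-number score from the authors and a lowest score of 13. The depth of the libraries is unknown, since the lists give no reads, and a peak can be missing because it lay under a calling threshold that is not given in the sources used here. Median scores were 149, 101 and 85.0, so scores were used only to rank peaks inside a list. The percentile of a peak is its place in its own list, with 100 for the highest score and tied scores at their mean rank. In the window of Sox2 the highest peak had score 400 (percentile 81.7) in Halo-Sox2, score 12707 (rank 2 of the list) in Halo-Sox2a and score 120 (percentile 64.5) in Control. These are unlike peaks, since the first 2 lay inside the gene and off its promoter, while the Control peak lay over the promoter. The lists do not tell reads of an inducible transgene from reads of the Sox2 gene itself. The values in the transgene lists are therefore no measure of accessibility at that gene. Of 8 embryonic stem cell markers, 6, 8 and 7 had a window peak, with median percentiles of 84.8, 84.2 and 81.3. Of 8 fibroblast markers, 5, 7 and 6 had one, with median percentiles of 26.5, 45.4 and 54.0. Nanog had no window peak in Halo-Sox2, and Pou5f1 had none in Control.

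Nearly all ribosomal protein genes were accessible in every list. A gene counted as having a peak when a peak midpoint lay inside it or within 1 kb of either end. By that rule 85 of 89 members had a peak in Halo-Sox2, 86 in Halo-Sox2a and 85 in Control. These shares were 95.5% (Wilson 95% interval 89.0 to 98.2), 96.6% (90.6 to 98.8) and 95.5% (89.0 to 98.2). Intervals here and below cover counting error only. Among all protein-coding genes the shares were 74.6%, 75.2% and 74.6%. A peak in all 3 lists was found for 84 members (94.4%), against 71.1% of all protein-coding genes. Ribosomal protein genes are short and offer little room for peaks, yet among the 8810 protein-coding genes no longer than the longest core member (11774 bp) only 49.0% had a peak in all 3 lists.

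At the promoter itself all core genes that could be examined had a peak. Promoter intervals, from 250 bases before to 50 bases after each annotated start, were given for 69 members, of which 57 were core genes, and for 17492 protein-coding genes. A peak overlapped the interval of all 57 core genes in each list (lower Wilson limit 93.7%). This limit does not extend to the core genes without an interval. Over all 69 members the counts were 64 in Halo-Sox2, 65 in Halo-Sox2a and 64 in Control, or 92.8%, 94.2% and 92.8%. The background was 61.8%, 62.3% and 61.8% of all promoters, and 58.9% held a peak in all 3 lists. The table held no entry for the other 20 members, among them Rpl7, Rpl3, Rpl8, Rplp1, Rps14 and Rpl17. Of these 20 genes, 19, 20 and 20 had a window peak in the 3 lists. The highest such peak reached over an end of the gene in 17, 18 and 17 cases.

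Of the 69 members with promoter entries, 5 lacked a promoter peak in 1 or more lists, and all 5 were copies outside the core set. Rpl3l is a paralog of Rpl3 known from heart and skeletal muscle. Its promoter interval held no peak, and its window peaks (percentiles 78.8, 76.9 and 84.0) lay at the start of a neighbour, Msrb1. The copies Rps27rt and Rpl32l had no peak in their windows in any list. Rpl37rt had a single peak of percentile 35.4 inside the gene, 2570 bp from its nearest end, in Halo-Sox2 only. Rpl39l, a paralog of Rpl39 known from testis, had 1 promoter peak, with score 40 and percentile 17.3, in Halo-Sox2a only.

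The other 7 members outside the core set had promoter peaks in all 3 lists. Rps23rg1, a retrocopy of Rps23, had a promoter peak at percentiles 98.3 in Halo-Sox2, 99.3 in Halo-Sox2a and 95 in Control. Its parent Rps23 stood at 68.2, 84.0 and 65.2. Rpl36al, an autosomal paralog of the X-linked Rpl36a, stood at 93.0, 94.3 and 96.5, against 81.8, 85.6 and 65.4 for Rpl36a. Rpl22l1 stood at 91.2, 96.0 and 88.0 and its parent Rpl22 at 63.9, 71.1 and 72.7. Rps27l, a paralog of Rps27, stood at 87.0, 84.5 and 86.9, with Rps27 at 72.5, 84.1 and 76.9. In each list the peaks of these 4 copies stood above those of their parents, though for Rps27l in Halo-Sox2a only narrowly. The Rpl36al peak also covered the start of Mgat2, and the Rps27 peak that of Rab13. Rpl10l, a paralog of the X-linked Rpl10 known from male germ cells, stood at 75.6, 86.7 and 79.5, with Rpl10 at 80.8, 86.6 and 81.5. Rpl7l1, a factor of large-subunit assembly, stood at 45.8, 75.0 and 61.8. Its relative Rpl7 had window percentiles of 88.0, 94.0 and 87.1. Rps19bp1 stood at 69.4, 58.7 and 64.0. Rps4l was named in the rule for copies but is not in the gene table. Members with near-identical copies elsewhere share sequence, so how reads were placed between them is uncertain.

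Rpl8, a large-subunit protein near the peptidyl transferase centre, was the 1 core gene without a window peak in a list. Its gene spans chr15:76904071-76906318. In Halo-Sox2a a peak of score 86 (percentile 44.3) lay at chr15:76903925-76904502, and in Control a peak of score 37 (percentile 18.5) lay at chr15:76903995-76904188. Halo-Sox2 had no peak there, although all 3 lists had a peak within 1558 to 1732 bp of one side of the gene and another 3888 to 4027 bp from the other. Both Rpl8 peaks ranked among the lowest of their list's members.

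Compared with the Control list, presence hardly differed. Halo-Sox2 held 1 member window that Control lacked, that of Rpl37rt, where 2.96% of all protein-coding genes showed this pattern. Control held 1 that Halo-Sox2 lacked, that of Rpl8, against a background of 2.95%. Halo-Sox2a held 1 that Control lacked, that of Rpl39l (background 2.22%), and Control held 0 that Halo-Sox2a lacked (background 1.65%). Over promoter intervals the counts were 0 and 0 for Halo-Sox2 (background 2.29% and 2.34%) and 1 and 0 for Halo-Sox2a (background 2.06% and 1.55%). Both comparisons share the 1 Control library.

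Peaks in member windows were also shared more often than those in windows of all protein-coding genes, but more of them were promoter peaks. In Halo-Sox2, 64 of 90 window peaks of members with promoter entries lay over the gene's own promoter. Over all protein-coding genes 11257 did and 32405 did not. The shares below were not matched for this. The windows held 115 distinct peaks in Halo-Sox2, 122 in Halo-Sox2a and 114 in Control. Of the Halo-Sox2 peaks, 12 (10.4%, 6.07 to 17.4) overlapped no Control peak by 1 bp, against 45.2% of the peaks in windows of all protein-coding genes. Of the Halo-Sox2a peaks, 13 (10.7%, 6.33 to 17.4) overlapped none, against 31.6%. In the other direction 13 Control peaks (11.4%) lacked a Halo-Sox2 counterpart, against 29.8%, and 4 (3.51%) lacked a Halo-Sox2a counterpart, against 17.6%. Between the transgene lists, 9 Halo-Sox2 peaks (7.83%) lacked a Halo-Sox2a counterpart, against 34.6%, and 20 Halo-Sox2a peaks (16.4%) lacked a Halo-Sox2 counterpart, against 30.5%.

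Member peaks found in a single list lay almost all away from promoters. For the 69 members with promoter entries, 26, 30 and 27 window peaks lay off the gene's own promoter, with median percentiles of 31.6, 30.4 and 38.0. Of these, 5 (19.2%), 6 (20.0%) and 2 (7.41%) were in no other list, against 41.2%, 23.2% and 19.3% of such peaks over all protein-coding genes. Of the promoter peaks 0, 1 and 0 were in no other list, against 1.56%, 1.03% and 1.45%, so promoter peaks were nearly always shared for members and for genes at large. The Halo-Sox2 list alone held a 188-bp peak beyond Rps9 (percentile 36.5) and a 560-bp peak in Rpl7l1 (33.1). The Halo-Sox2a list alone held a 527-bp peak in Rps3a1 (25.3). Rps9 and Rps3a1 are small-subunit proteins, and each gene had its promoter peak in all 3 lists.

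Though nearly always present, member promoters did not rank above all promoters at the median. Among promoters with a peak, the median percentile of members was 72.3 in Halo-Sox2, 83.7 in Halo-Sox2a and 75.7 in Control. Over all protein-coding genes it was 77.6, 83.8 and 83.2. For protein-coding genes no longer than the longest core member it was 73.2, 80.6 and 79.4. The top decile of the list held 9 members in Halo-Sox2 (13.0% of 69, 7.02 to 23.0), 16 in Halo-Sox2a (23.2%, 14.8 to 34.4) and 10 in Control (14.5%, 8.07 to 24.7). The background was 14.0%, 21.2% and 20.6% of all promoters. For genes no longer than the longest core member it was 7.62%, 12.1% and 11.1%. The member shares lay close to those of all promoters in the transgene lists and below in Control, where the all-promoter share lay inside the interval. Promoters without a peak count in these shares and were fewer among members, so the shares do not compare rank alone. Among promoters with a peak the upper quartile was 86.5, 89.9 and 88.5 for members, below the 89.0, 93.0 and 92.7 for all promoters. With the gene window in place of the promoter, members had median percentiles of 75.6, 84.4 and 80.7, against 80.6, 84.0 and 82.7 for all genes. By this measure 15 (16.9%), 29 (32.6%) and 22 (24.7%) members were in the top decile, against 21.6%, 26.2% and 24.4%. Some windows reach into a neighbour's promoter. The highest peak in the window of Rpl4 lay at the start of Snapc5, that of Rpl41 at Zc3h10, that of Rpl18 at Sphk2, that of Rps18 at B3galt4 and that of Rpl36 at Micos13. Promoter values are therefore used for single genes below where they exist.

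**Figure D1:**
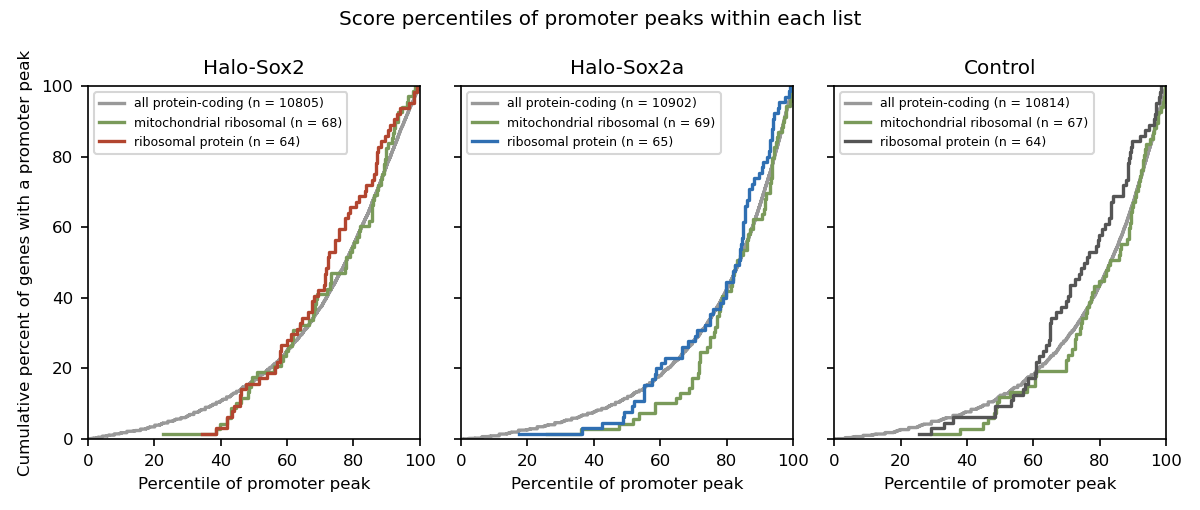
Cumulative percent of genes (vertical axis) whose promoter peak lies at or below a given score percentile of its own list (horizontal axis), for ribosomal protein genes, mitochondrial ribosomal protein genes and all protein-coding genes with a promoter peak, 1 panel per list. In the upper part of the Control panel the ribosomal protein curve runs to the left of the all-gene curve (medians 75.7 and 83.2), and in Halo-Sox2a the medians nearly coincide (83.7 and 83.8).

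The order of the members was broadly the same in the 3 lists. Across the 64 member promoters with a peak in every list, Spearman's rho was 0.84 between Halo-Sox2 and Control, 0.87 between Halo-Sox2a and Control and 0.85 between Halo-Sox2 and Halo-Sox2a. The same measure over 10298 promoters was 0.83, 0.87 and 0.87. These are descriptions across genes, and the points share library, depth and base composition. The difference between a member's highest and lowest percentile had a median of 10.97 points, against 10.19 for all genes.

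**Figure D2:**
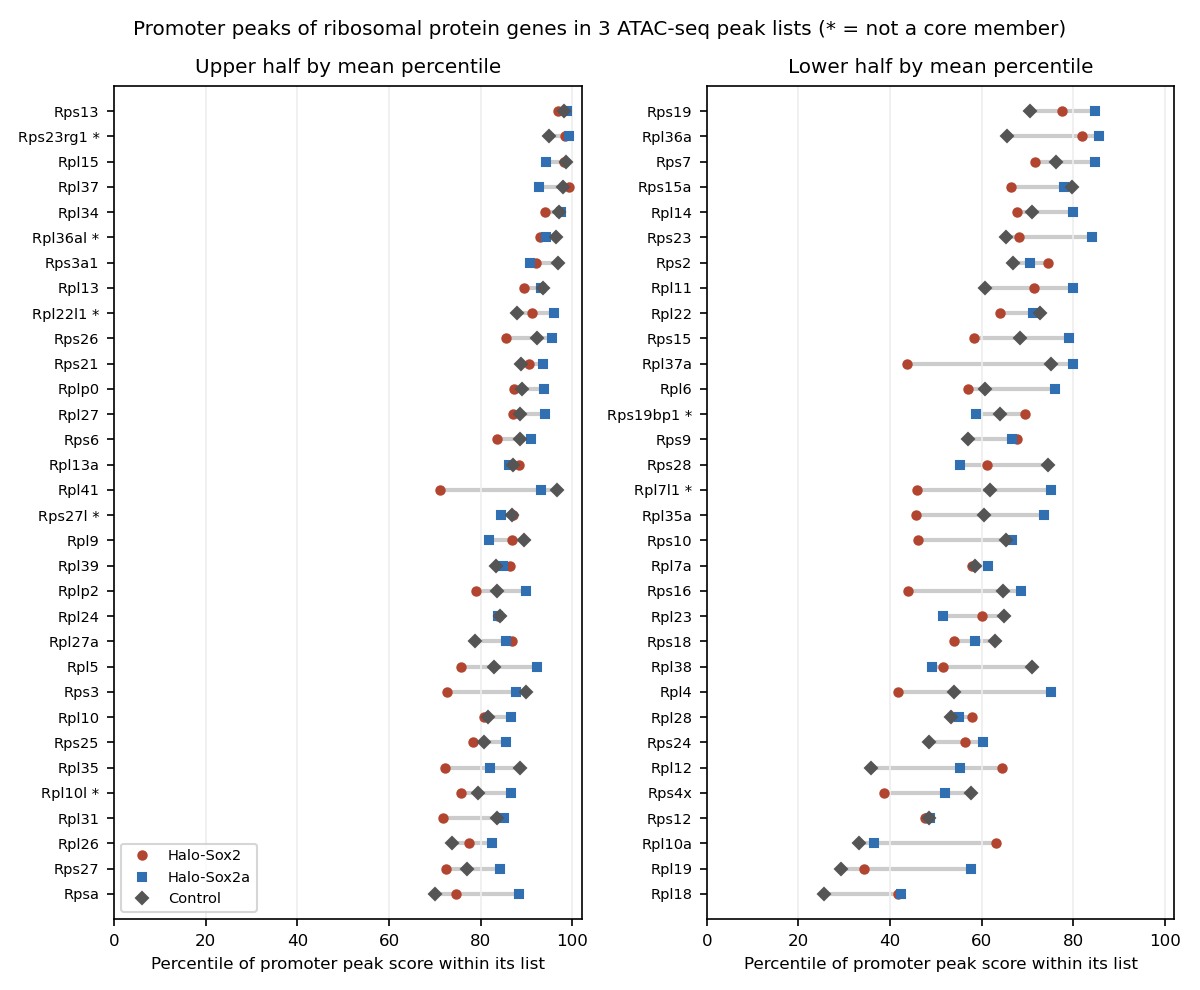
Score percentile of the promoter peak (horizontal axis, 0 to 100 within each list) for the 64 ribosomal protein genes with a promoter peak in all 3 lists, sorted by mean percentile, with 1 symbol per list and a grey line from the lowest to the highest value. Rps13 is at the top with a mean of 98.0 and Rpl18 at the bottom with 36.6, and the longest line is that of Rpl37a (36.4 points).

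The top of the order held core genes of both subunits and the copy Rps23rg1, whose mean of 97.5 was second to that of Rps13. Rps13 stood at percentiles 96.8, 98.9 and 98.2, with scores of 839, 780 and 501. Rpl15 stood at 98.2, 94.2 and 98.5. Rpl37, a zinc-finger protein of the large subunit, stood at 99.2 in Halo-Sox2, 92.7 in Halo-Sox2a and 98.0 in Control. All values of these 3 genes lay in the top decile. Among core genes Rpl34 followed with 94.1, 97.6 and 97.1.

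At the other end, Rpl18 stood at 41.8, 42.4 and 25.6, with scores of 119, 82 and 45. Its promoter peak also covered the start of Sphk2, a sphingosine kinase gene. Rpl19 stood at 34.2, 57.7 and 29.3. Rpl10a stood at 63.0, 36.4 and 33.1, so it was far higher in Halo-Sox2 than in the other lists. Rps12 was low and steady, at 47.5, 48.7 and 48.4. Rps4x, the X-linked gene of the small subunit, stood at 38.7, 52.0 and 57.6. Rps24 stood at 56.3, 60.2 and 48.4. Rpl38, which is known for its part in translation of Hox messenger RNAs, stood at 51.6, 49.2 and 71.0. Presence in all 3 lists was the condition for entering this order.

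By place in the ribosome, groups overlapped widely. The P stalk recruits elongation factors and is built from Rplp0, Rplp1 and Rplp2. Rplp0 stood at 87.3, 93.7 and 89.1, Rplp2 at 79.0, 89.9 and 83.5, and Rplp1, by its window, at 61.3, 73.5 and 70.8. All 3 stalk genes had their highest percentile in Halo-Sox2a and their lowest in Halo-Sox2. The share of all promoters with this whole order was not counted, and only shares for pairs of lists are given. Over all promoters 75.3% were lower in Halo-Sox2 than in Halo-Sox2a and 71.1% lower than in Control. The share higher in Halo-Sox2a than in Control was 52.7%. Rpl5 and Rpl11 carry the 5S RNA into the large subunit and bind Mdm2 under nucleolar stress. Rpl5 stood at 75.6, 92.3 and 82.9 and Rpl11 at 71.4, 79.8 and 60.7. Both were highest in Halo-Sox2a, while their order between Halo-Sox2 and Control differed.

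Rpl4, Rpl17 and Rpl39 line the tunnel through which the new peptide leaves. The promoter of Rpl4 stood at 41.8, 75.0 and 53.9, and that of Rpl39 at 86.4, 84.8 and 83.4. Rpl17 had window percentiles of 60.3, 80.3 and 72.2. At the rim of the tunnel, Rpl31 stood at 71.7, 85.0 and 83.5, Rpl35 at 72.2, 82.1 and 88.6 and Rpl26 at 77.4, 82.5 and 73.7. Rpl23a, also at the rim, had window percentiles of 56.1, 70.2 and 64.2. It stood below these 3 in each list, and the promoter of the rim gene Rpl19 stood lower than all 3 as well.

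In the small subunit, Rps2 and Rps3 lie where the messenger RNA enters. Rps3 stood at 72.7, 87.6 and 89.8 and Rps2 at 74.5, 70.5 and 66.8, so their orders over the lists were opposite. Rps14, Rps26 and Rps28 lie near the exit side. Rps26 stood at 85.5, 95.6 and 92.3 and Rps28 at 61.2, 55.3 and 74.5, and Rps14 had window percentiles of 85.2, 81.3 and 94.7. The promoter peak of Rps28 also held the start of Ndufa7, a subunit of respiratory complex I. Rps6, the target of S6 kinases, stood at 83.5, 91.0 and 88.5. Rpsa, also known as a laminin receptor, stood at 74.5, 88.4 and 70.0, and Rps19, mutated in Diamond-Blackfan anaemia, at 77.4, 84.8 and 70.6.

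As whole subunits, the 34 core large-subunit promoters had medians of 72.0, 82.3 and 77.0, and the 23 core small-subunit promoters 71.6, 84.0 and 70.6. The quartiles in Control were 60.7 to 88.2 and 64.9 to 84.6, so the subunits overlapped over most of their range.

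Members stood higher in Halo-Sox2a than in Control more often than other genes did. Of the 64 promoters, 44 had a higher percentile in Halo-Sox2a (68.8%) and 20 a lower one, with a median difference of 3.78 points. Over all 10298 promoters 52.7% were higher, with a median of 0.24 points. A difference of 10 points or more upward was seen for 14 members (21.9%), against 13.6% of all promoters, and downward for 3 (4.69%), against 11.3%. The largest upward differences were those of Rpl19 (29.3 in Control, 57.7 in Halo-Sox2a), Rpl4 (53.9, 75.0), Rpl36a (65.4, 85.6) and Rpl12 (35.8, 55.3). The 3 downward ones were Rpl38 (71.0, 49.2), Rps28 (74.5, 55.3) and Rpl23 (64.9, 51.6). In lists cut to an equal 72638 highest peaks, the member median was 1.38 points with 35 of 64 higher, against -0.98 for all promoters. When peaks were ranked only among those over promoters, it was 5.91 with 44 of 64 higher, against 0.17. Members with a Control percentile between 63.7 and 88.5, their middle range, had medians of 84.3 in Halo-Sox2a and 75.7 in Control (n = 32). Other genes count in that range too, and all 4353 promoters in it had medians of 80.4 and 79.4. Ranks from lists of different lengths show no change in accessibility, and without replicates these differences have no error.

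Between Halo-Sox2 and Control the direction depended on what was ranked. In the full lists 41 of 64 members had a lower percentile in Halo-Sox2 (64.1%), with a median difference of -2.53 points, and 71.1% of all promoters did so too, with a median of -3.78. Among promoter peaks only, 39 of 64 members were higher, with a median of 3.74 points, against -0.35 for all promoters. In lists of equal size the medians were -6.55 and -7.68. In the full lists 15 members (23.4%, background 27.5%) were lower by 10 points or more and 6 (9.38%, background 7.95%) were higher, shares near the background. Rpl37a (75.2 in Control, 43.6 in Halo-Sox2), Rpl41 (96.7, 71.0) and Rps16 (64.7, 43.9) were the furthest down. The Rpl41 values come from unlike peaks. In Control 1 peak of 2232 bp covered both Rpl41 and the start of Zc3h10, while Halo-Sox2 had separate peaks there, at percentile 71.0 over Rpl41 and 89.8 at Zc3h10. Rpl10a (33.1, 63.0) and Rpl12 (35.8, 64.5) were the furthest up.

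Set side by side, the transgene lists placed 46 of 64 members lower in Halo-Sox2 than in Halo-Sox2a (71.9%, against 75.3% of all promoters), with medians of -5.49 and -4.20 points. A gap of 10 points or more in this direction was seen for 23 members (35.9%, background 27.9%), and in the other direction for 2 (3.12%, background 5.90%), Rpl10a and Rps19bp1. The members with the widest range were Rpl37a (43.6, 80.0 and 75.2), Rpl4, Rpl10a, Rpl7l1, Rpl12 (64.5, 55.3 and 35.8), Rpl19 and Rpl35a (45.7, 73.5 and 60.4). At the other extreme, Rpl24 differed by 0.422 points over the lists, at 83.8, 83.7 and 84.1. In lists of equal size the median of -8.17 for members stood beside -5.99 for all promoters, and among promoter peaks -2.74 beside -0.40.

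Member promoter peaks reached less far to the transcribed side than those of all genes. Median widths were 847 bp in Halo-Sox2, 847 bp in Halo-Sox2a and 773 bp in Control, against 934, 967 and 893 bp for all promoters. From the first annotated start, member peaks reached 364, 336 and 330 bp downstream at the median, against 499, 506 and 477 bp. Upstream they reached 412, 461 and 425 bp, against 386, 410 and 376 bp. The midpoint lay upstream of the start for 62.5%, 60.0% and 62.5% of members, against 39.0%, 40.8% and 40.1% of all promoters with a peak. Its median position was -39, -53 and -38 bp for members and 56, 48 and 50 bp for all. Peaks of the mitochondrial ribosomal protein genes, whose products serve another ribosome, reached 390, 422 and 330 bp downstream, close to the members in Control and further in Halo-Sox2a. Their median widths were 770, 828 and 727 bp, below those of members in each list. Their midpoint lay upstream in 48.5%, 40.6% and 53.7%. For protein-coding genes no longer than the longest core member, downstream reach was 453, 449 and 424 bp.

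**Figure D3:**
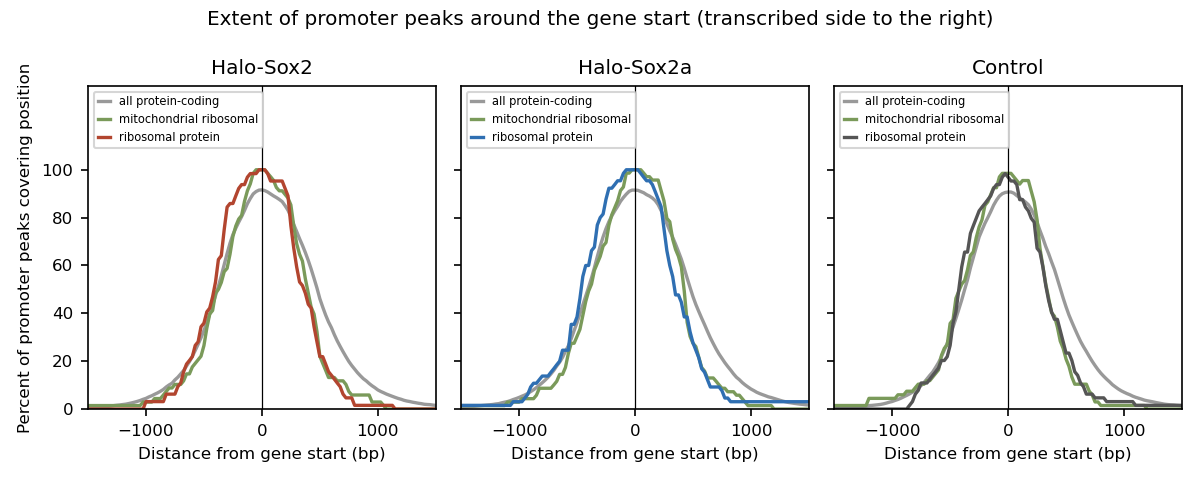
Percent of promoter peaks covering each position (vertical axis) by distance from the first annotated start in bp (horizontal axis, transcribed side to the right), 1 panel per list. At 500 bp downstream the ribosomal protein peaks cover 21.9%, 27.7% and 23.4%, below the all-gene 46.1%, 47.0% and 42.7%. The mitochondrial ribosomal protein peaks are close to them there, at 22.1%, 27.5% and 20.9%. At 500 bp upstream the ribosomal protein peaks cover 35.9%, 38.5% and 26.6% beside the all-gene 32.8%, 36.1% and 30.7%.

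The annotated start lay inside the peak for all 64 and 65 member promoters in the transgene lists and for 62 of 64 (96.9%) in Control, against 91.6%, 91.5% and 90.7% of all promoters. The peak also covered the start of another protein-coding gene for 14.1%, 15.4% and 15.6% of members, near the background of 14.2%, 14.3% and 14.2%. The members concerned and their partners were Rpl7a with Med22, Rpl12 with Lrsam1, Rps27 with Rab13, Rpl9 with Lias, Rpl18 with Sphk2, Rpl41 with Zc3h10, Rpl36al with Mgat2, Rpl35a with Iqcg, Rps28 with Ndufa7 and Rps18 with Vps52. Where a peak covers both starts it cannot be given to 1 of the genes. In Halo-Sox2 this held for 9 of these 10, since Rpl41 had a peak of its own there.

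An ETS word and a pyrimidine tract were commoner in member promoters than in the table as a whole. CCGGAAG, on either strand, was in the 300-base interval of 26 of 69 members (37.7%, 27.2 to 49.5) and of 24 of 57 core genes (42.1%). It was in 12.9% of all 17492 genes and in 19.7% of the 10285 with 1 interval under a peak in all 3 lists. Mitochondrial ribosomal protein genes held it as often, in 26 of 69. A pyrimidine tract, meaning a C followed by at least 4 C or T that begins within 5 bases of the start on the coding strand, was in 32 members (46.4%, 35.1 to 58.0). It was in 21.5% of all genes, in 22.1% of those with a peak in all 3 lists and in 24.6% of the mitochondrial set. Rpl15 has a tract of 17 bases and Rpl18 one of 10, as printed above.

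Most other words lay near the background. GGGCGG, a word of SP and KLF factors, was in 59.4% of members, between the 49.2% of all genes and the 72.2% of those with a peak. AAGATGGCG, a word of YY1, was in 5.80%, against 2.14% and 3.45%. The NRF1 word was in 2.90%, against 1.47% and 2.37%. TATAAA was in 11.6%, against 14.8% and 6.44%. CCAAT, a word of NFY, was in 31.9%, against 42.3% and 41.4%. Of the Sox words, ACAAAG was in 11.6% of members, against 19.1% of all genes and 13.4% of those with a peak. ACAATG was in 10.1%, against 12.8% and 6.94%. The octamer ATGCAAAT of POU factors was in 0 of 69, with an upper Wilson limit of 5.27%, against 1.90% and 1.61%. All words were searched on both strands, and overlaps between different words were allowed. A match is a string of letters in this interval and says nothing of binding. The median GC content was 57.0% for members, 56.3% for all genes and 62.0% for those with a peak.

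**Figure D4:**
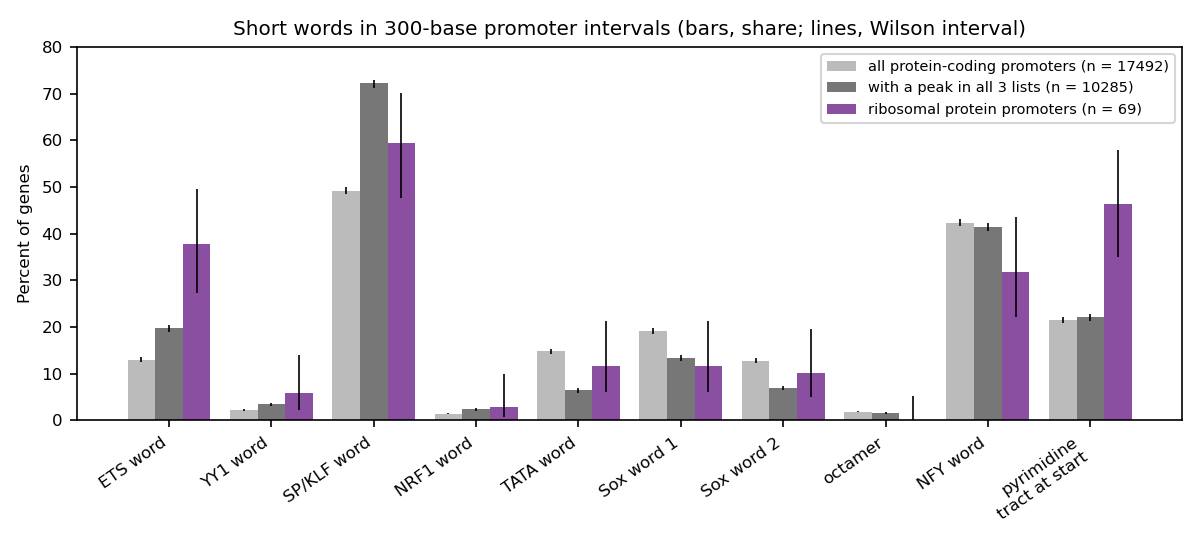
Percent of genes (vertical axis, from 0) whose 300-base promoter interval holds each searched word, for ribosomal protein genes, all protein-coding genes and those with an interval under a peak in all 3 lists; lines are Wilson 95% intervals for counting error. The ETS word (37.7%) and the pyrimidine tract (46.4%) are the only bars of the ribosomal protein genes whose interval lies above both other shares.

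Core promoters with CCGGAAG also stood somewhat higher in each list. Their median percentiles were 76.0 in Halo-Sox2, 85.3 in Halo-Sox2a and 82.1 in Control (n = 24). The 33 without it had 66.4, 79.0 and 70.6. For the pyrimidine tract the order was the other way, with 68.2, 79.9 and 71.0 for the 27 with a tract and 73.6, 84.2 and 74.8 for the 30 without. Core promoters with the Sox word ACAAAG (n = 7) had medians of 63.9, 73.5 and 68.4, against 72.4, 83.8 and 75.7 for the other 50. Those with ACAATG (n = 4) had 87.4, 85.5 and 85.2, against 71.6, 82.1 and 73.7 for the other 53. The Sox words thus went opposite ways, on few genes, and none of these contrasts has a replicate.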

How the data were processed

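ATAC-seq libraries of 3 mouse embryonic stem cell lines, 1 per group and sequenced as 75-bp read pairs per the labels' protocols, were deposited as peak lists. Each list gives a whole-number score per peak, which is the authors' own value, deposited without a stated scale. The submitters' processing notes name the build mm10 and the tools STAR, SAMtools, MACS2 (3.0.0a7), MACS3 and deepTools (3.3.0), with no role or order. Calling thresholds, filters and the handling of Tn5 cut sites are not given in the sources used here. The peak names of a list all carry the name of its own library, which is how separate calling was inferred. No depth is known, and a score has no counting error that could be computed.

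Gene positions, and promoter starts, strands and sequences, came from RefSeq tables of GRCm38.p6, the same assembly as mm10; members were matched by symbol. Coordinates are 1-based. Peaks were tied to genes by midpoint within 1 kb, or by overlap of at least 1 bp with the 300-base promoter interval. Where a gene had several peaks, the highest score was used. Wilson 95% intervals were computed with Python 3.11.15, numpy 2.4.6, pandas 2.3.3 and scipy 1.17.1, and figures with matplotlib 3.10.9. The counting steps were tested on simulated data. In shares of words among genes with a peak, the same interval had to hold a peak in all 3 lists, and GC content was taken from each gene's first interval.

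The genes named by rule were members without a peak in a list, the 5 highest and 5 lowest per list, the 5 widest ranges, single-list peaks off promoters and the divergent copies; some genes that the rule names are not reported here. The members, lists and rules were chosen with earlier results of these data known. Genes given by place in the ribosome or by promoter value, and the set of short genes, were chosen after values were seen. Alternatives changed the member set, list size, window, score minimum, overlap and ranking.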

Additional observations from a re-analysis of the deposited data

How the results depend on the processing

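No paired analysis was possible because each group is 1 library. Of 137 values recomputed under other settings, 95 stayed within the stated margin (the counting interval, or 1.5 times for counts) and 42 moved. With core genes only, the share with a window peak was 98.7% in Halo-Sox2, 100% in Halo-Sox2a and Control and 98.7% in all 3 lists. With core genes and promoter intervals together, a setting chosen after seeing the data, each share was 100%, since the copies without peaks and Rpl8, which has no promoter entry, are then left out. In lists of equal size the median percentile in Halo-Sox2 was 70.1. Top-decile counts over promoter intervals were 9 (Halo-Sox2), 16 (Halo-Sox2a) and 10 (Control), and for core genes 6, 13 and 8. The share of members fell too, to 13.0%, 23.2% and 14.5%, and some highest window peaks lay at a neighbour's start. The member gained in Halo-Sox2 became 0 with core genes, promoter intervals or both. The member lost in Halo-Sox2 became 0 with a window of 2.5 kb, with promoter intervals, with both restrictions, or with peaks above percentile 25. The member gained in Halo-Sox2a became 0 with core genes, with or without promoter intervals. Peaks without a counterpart changed most. Over promoter intervals they were 0 for Halo-Sox2 against either other list, 1 for Halo-Sox2a against either and 0 for Control against either. With 50% of both peaks required to overlap they were 17 (Halo-Sox2 without Halo-Sox2a), 21 (Halo-Sox2 without Control), 29 (Halo-Sox2a without Control), 22 (Control without Halo-Sox2) and 20 (Control without Halo-Sox2a). Within 2.5 kb they were 19 (Halo-Sox2 without Control), 38 (Halo-Sox2a without Halo-Sox2), 34 (Halo-Sox2a without Control), 21 (Control without Halo-Sox2) and 13 (Control without Halo-Sox2a). Halo-Sox2 peaks without a Control counterpart were 7 with core genes and 6 in lists of equal size. Where the setting itself does not show the cause, the cause was not tested. Depth is unknown, so a missing peak may lie under a threshold, and the equal-size lists do not make the libraries equally deep.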

Other observations

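Other genes of translation were accessible throughout. All 78 mitochondrial ribosomal protein genes had a window peak in each list, where 74.6%, 75.2% and 74.6% of protein-coding genes did, and their highest peaks had median percentiles of 77.8 in Halo-Sox2, 86.4 in Halo-Sox2a and 84.0 in Control. All 20 genes of a list of elongation factors, initiation factors and nucleolar proteins had one too, with medians of 84.8, 93.0 and 87.9. Ncl, which encodes the nucleolar protein nucleolin, had its highest peak at its promoter, at 95.7, 97.4 and 97.6. The highest window peak of Eef2, whose product moves the ribosome along the messenger RNA, did not lie at its promoter. Fau, whose product is cleaved to the small-subunit protein RPS30, stood at 46.0, 47.6 and 60.4. The same peaks also covered the start of the mitochondrial ribosomal protein gene Mrpl49, so they cannot be given to Fau alone. Npm1, nucleophosmin, has no promoter entry, and its window percentiles were 78.6, 94.4 and 70.2. In every peak list the peak shared by Fau and Mrpl49 stood below the median of the 20 genes.

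Pseudogenes of ribosomal proteins lay near a peak no more often than pseudogenes at large. Of 318 annotated pseudogenes with such a symbol, 14 (4.40%, 2.64 to 7.25) had a peak within 1 kb in Halo-Sox2, 33 (10.4%, 7.49 to 14.2) in Halo-Sox2a and 29 (9.12%, 6.42 to 12.8) in Control. Over all 10622 pseudogenes the shares were 9.76%, 10.6% and 10.1%. The share in Halo-Sox2 was below that in the other lists for this family, while the shares of all pseudogenes were close together. A peak midpoint lay inside the pseudogene in 1, 11 and 11 cases (0.314%, 3.46% and 3.46%), against 5.08%, 5.75% and 5.86% of all pseudogenes. The peaks within 1 kb had median percentiles of 39.5, 28.2 and 29.3, against 50.0, 50.2 and 49.2 for all pseudogenes. Pseudogenes resemble their parent genes closely, so the placement of reads is uncertain, and the difference between the lists has no replicate and was not tested.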
